A study of Mus musculus with 6 samples.

Results

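The mitosis genes are 34 genes, chosen by symbol, whose products act from entry into mitosis to the separation of daughter cells, among 19285 genes with FPKM values in 6 RNA sequencing libraries of cultured mouse testicular peritubular myoid cells. FPKM counts sequenced fragments relative to transcript length and library depth, so levels can be compared between genes. The cells were primary cultures from C57BL/6J mice, grown in medium with 10% serum, and were either left untreated (3 libraries) or given endothelin-1 (ET-1), a peptide that contracts smooth muscle, at 50 nM for 5 min (3 libraries). The labels name no genetic change in either group and leave unsaid whether replicate libraries are from different animals or cultures, so every p-value reflects only library-to-library spread, which may be technical. The comparison asks whether transcripts differ between cultures with and without this short exposure. Below, rose and fell mean higher or lower in the ET-1 libraries. An effect of ET-1 cannot be told apart here from other differences between the cultures of the groups.

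A cell enters mitosis when cyclin B switches on the kinase CDK1. Chromosomes then condense, the spindle checkpoint holds anaphase until every kinetochore is attached, and the anaphase-promoting complex (APC/C) destroys the cyclins and lets the chromosomes part. Most of the genes that encode this machinery are transcribed late in the cell cycle under B-MYB, FOXM1 and the MuvB core, and are shut down in resting cells by the DREAM complex, in which MuvB is joined to an Rb-family protein and E2F4. In a culture their RNA therefore marks dividing cells. Peritubular myoid cells wrap the seminiferous tubules and divide little in the adult testis, whereas they divide in culture with serum.

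MuvB and its partners bind the cell cycle genes homology region (CHR, here the letters TTTGAA or TTCGAA), often near the start of transcription, and the factor NF-Y binds CCAAT boxes upstream of it. RefSeq promoter windows of 300 bases (250 before and 50 after the start, build GRCm38.p6) were at hand for 27 of the 34 genes. Both a CHR and a CCAAT word, read on both strands, stood in a window of 20 of these 27 genes (74.1%), against 8.6% of the 27025 genes in the promoter table and 8 of 39 DNA replication genes (20.5%). A CHR word, with or without CCAAT, was found in 22 genes (81.5%, against 21.7% of all genes), and within 50 bases of the start in 20 (74.1%, against 6.1%). A CCAAT word was found in 22 genes (81.5%, against 41.1%), and 15 had more than 1 (55.6%, against 13.3%). A CCAAT and a CHR word can share end bases, which occurred among these windows in Cdca8 alone, and a match describes the letters, not a bound site.

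Windows are shown for 3 genes with both words, Ccnb2, Plk1 and Cdc20, for Anln, the member with the smallest p, and for Birc5, the member that passed the test with replicate numbers as a block. Letters run 5′ to 3′ on the gene's strand, and capitals mark the CHR and CCAAT words on either strand.
Ccnb2, cyclin B2, chr9:70421505-70421804 (- strand): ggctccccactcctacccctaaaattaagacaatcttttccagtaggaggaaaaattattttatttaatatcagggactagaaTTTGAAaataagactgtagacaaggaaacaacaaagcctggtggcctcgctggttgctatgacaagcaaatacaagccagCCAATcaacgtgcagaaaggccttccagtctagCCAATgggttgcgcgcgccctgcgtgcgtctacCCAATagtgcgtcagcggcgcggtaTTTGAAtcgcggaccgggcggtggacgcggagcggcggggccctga
Plk1, a mitotic kinase, chr7:122159185-122159484 (+ strand): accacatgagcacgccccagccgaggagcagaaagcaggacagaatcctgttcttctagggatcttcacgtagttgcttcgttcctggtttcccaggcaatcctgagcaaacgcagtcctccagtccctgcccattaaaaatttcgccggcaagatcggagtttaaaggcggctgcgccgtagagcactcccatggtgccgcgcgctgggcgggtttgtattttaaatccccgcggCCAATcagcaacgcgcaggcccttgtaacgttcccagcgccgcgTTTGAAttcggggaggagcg
Cdc20, an activator of the APC/C, chr4:118437294-118437593 (- strand): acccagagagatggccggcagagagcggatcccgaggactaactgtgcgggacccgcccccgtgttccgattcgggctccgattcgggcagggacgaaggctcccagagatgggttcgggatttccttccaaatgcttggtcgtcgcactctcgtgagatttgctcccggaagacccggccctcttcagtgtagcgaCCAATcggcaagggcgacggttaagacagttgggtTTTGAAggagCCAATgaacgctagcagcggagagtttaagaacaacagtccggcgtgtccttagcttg
Anln, anillin, chr9:22389157-22389456 (- strand): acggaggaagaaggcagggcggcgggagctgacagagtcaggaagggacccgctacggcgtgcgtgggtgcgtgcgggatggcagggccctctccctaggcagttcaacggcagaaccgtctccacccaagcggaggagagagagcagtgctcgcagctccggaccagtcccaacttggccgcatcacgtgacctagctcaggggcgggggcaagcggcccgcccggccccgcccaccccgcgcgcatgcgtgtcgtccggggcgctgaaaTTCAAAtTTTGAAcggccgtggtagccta
Birc5, survivin, chr11:117848987-117849286 (+ strand): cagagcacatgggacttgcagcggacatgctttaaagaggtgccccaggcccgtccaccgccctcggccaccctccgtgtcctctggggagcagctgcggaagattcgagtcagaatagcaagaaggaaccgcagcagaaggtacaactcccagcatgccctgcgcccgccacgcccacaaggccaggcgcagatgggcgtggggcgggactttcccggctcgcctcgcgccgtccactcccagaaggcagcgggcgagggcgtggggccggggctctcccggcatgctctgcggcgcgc
In Ccnb2 the CCAAT words begin at -87, -54 and -21 from the start and CHR words at -167 and 5, counting the first base of the transcript as 1. In Plk1 a CCAAT word begins at -14 and a CHR word at 31. The Cdc20 window holds CCAAT words at -53 and -8 and a CHR word at -18. Anln has no CCAAT word in its window and a pair of adjoining CHR words at 22 and 29. The Birc5 window holds neither word.

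All 34 genes were detected in every library, with every value above 1 FPKM, so all of them passed the filter on low values (at least 1 FPKM in at least 3 libraries) and were tested among 11664 genes. By mean level they lay between percentiles 12.3 and 84.2 of the tested genes, and 22 lay above the middle. The most abundant were Bub3, a checkpoint protein (47.98 FPKM over the 6 libraries), Birc5 (45.65), Cdc20 (45.64), Plk1 (36.62) and Cdk1 (35.64). The lowest were Cenpf, a large kinetochore protein (2.38 FPKM), Cdc25c, the phosphatase that activates CDK1 (4.29), Cenpe, a kinetochore motor (4.34), and Bub1, a checkpoint kinase (4.64). Mki67, which encodes the proliferation marker Ki-67, stood 23rd of the 34, with 11.02, 8.09 and 11.19 FPKM without ET-1 (libraries 1 to 3) and 11.52, 7.13 and 10.92 FPKM with it. Its values were lowest in the libraries numbered 2 of both groups, and the groups overlapped.

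The table gives no read counts. Judged from the smallest steps among low values, each library held between 17620000 and 18320000 fragments, with 82.9% to 88.3% of low values within 0.15 of a whole fragment. With the longest transcript taken as the length, the thinnest member value at that depth, of Cdc25c, rested on about 108 fragments. The next thinnest minimum, that of Ttk, rested on about 185. The cells' label was checked against smooth muscle markers: Acta2, the smooth muscle actin, was at 1474.23 to 2211.28 FPKM and Myh11, the smooth muscle myosin, at 22.24 to 51.15. Insl3, a hormone of Leydig cells, was at 613.96 to 4531.62 FPKM, so the RNA also held a Leydig cell marker at a high level. Other listed Leydig cell markers were Cyp11a1 (87.85 to 384.5), Star (61.96 to 155.11), Nr5a1 (54.51 to 59.82) and Hsd3b1 (17.77 to 58.19). Hsd3b6 (0 to 0.59), Lhcgr (0.04 to 0.44), Cyp17a1 (0 to 0.09) and Hsd17b3 (0 to 0.04) stayed below 1 FPKM. Germ cells divide too. Among 18 of their markers Ddx4 was at 0.22 to 0.54 FPKM, Dazl at 0.11 to 0.32, Stra8 at 0 to 0.07 and Spo11 at 0 throughout. Zbtb16 was at 0.24 to 1.14 FPKM in untreated and 0.09 to 0.17 in ET-1 cells, and Kit at 0.31 to 0.86 and 0.07 to 0.25. Both fell under the filter on low values and were not tested. Sycp3 was at 0.38 to 1.45 FPKM, and Sycp1, Sycp2, Dmc1, Tex11, Ccna1 and Acrv1 stayed at or below 0.5. The spermatid genes Prm1 and Prm2 were at 2.02 to 5.4 and 2.75 to 7.73 FPKM, Tnp1 at 0.93 to 2.5 and Tnp2 at 1.45 to 3.86, and Uchl1, the highest, at 67.97 to 143.73.

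**Figure D1:**
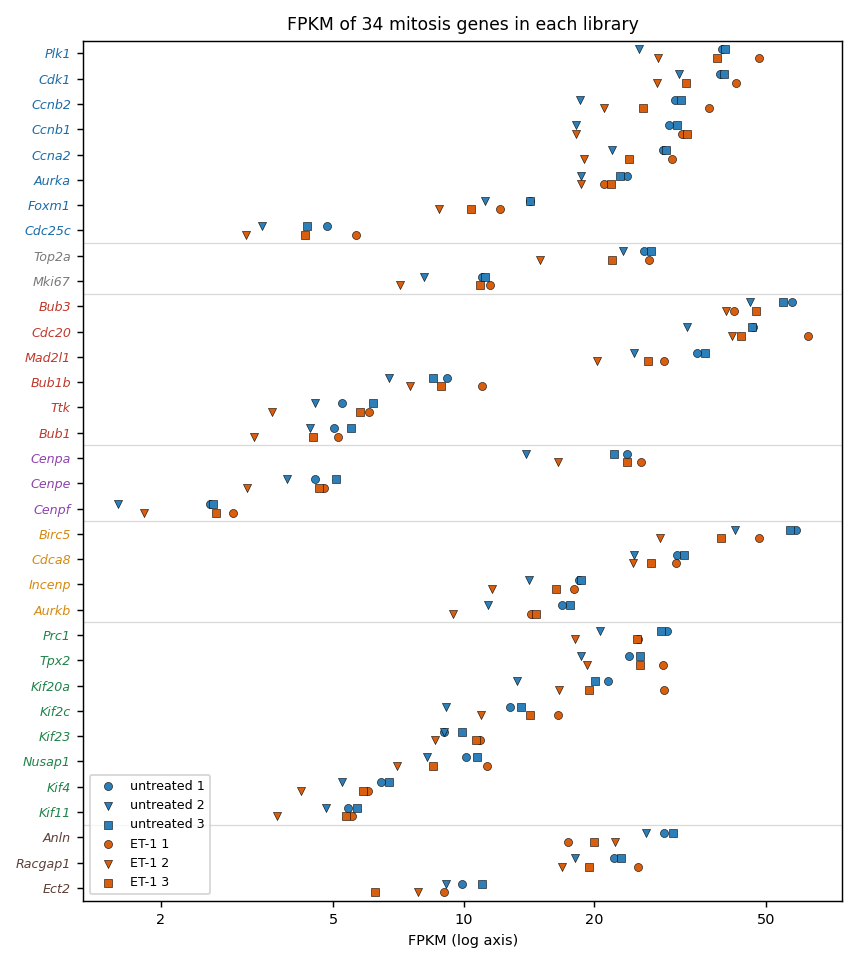
Level of each of the 34 mitosis genes in each library (horizontal, FPKM on a log axis). Rows are genes, coloured by role from entry into mitosis at the top to cytokinesis at the bottom, and point shape gives the library number. Downward triangles, the libraries numbered 2, lie to the left in nearly every row, from 1.59 FPKM of Cenpf to 45.91 of Bub3 in untreated library 2.

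No mitosis gene passed the test after ET-1. Of 34 genes, 0 had a limma adjusted p under 0.05, against 3.46% of all tested genes, and 1 (Anln) had an unadjusted p under 0.05, against 24.1% of tested genes. By sign 22 were lower (64.7%, against 54.3% of tested genes) and 12 higher. The median log2 change was -0.092 (all tested genes: -0.027), and single changes ran from -0.51 to 0.23 on the log2(FPKM + 1) scale. The 95% intervals of all 34 changes lay within a 2-fold change in either direction, and those of 17 within a 1.5-fold change. The values of the groups did not overlap in 2 genes, Anln and Ect2, against 30.9% of tested genes. In bulk RNA, fewer dividing cells and less of an RNA per dividing cell cannot be told apart. Without ET-1 library 2 the median turned to 0.031, and over the other single libraries left out it ran from -0.189 (without ET-1 library 1) to -0.032 (without untreated library 3), with 0 members past the threshold each time.

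With the replicate number as a block, 1 of the 34 genes passed, Birc5, against 9.45% of tested genes in either direction and 5.19% in the lower direction. Unadjusted p-values under 0.05 in that fit went to 5 genes: Birc5, Anln, Mad2l1, Foxm1 and Bub3, all lower by sign. Over all tested genes that share was 29.9%. With both libraries numbered 2 left out, an alternative chosen after the data were seen, 0 of the 34 passed (1.98% of tested genes did) and the median log2 change was -0.054.

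**Figure D2:**
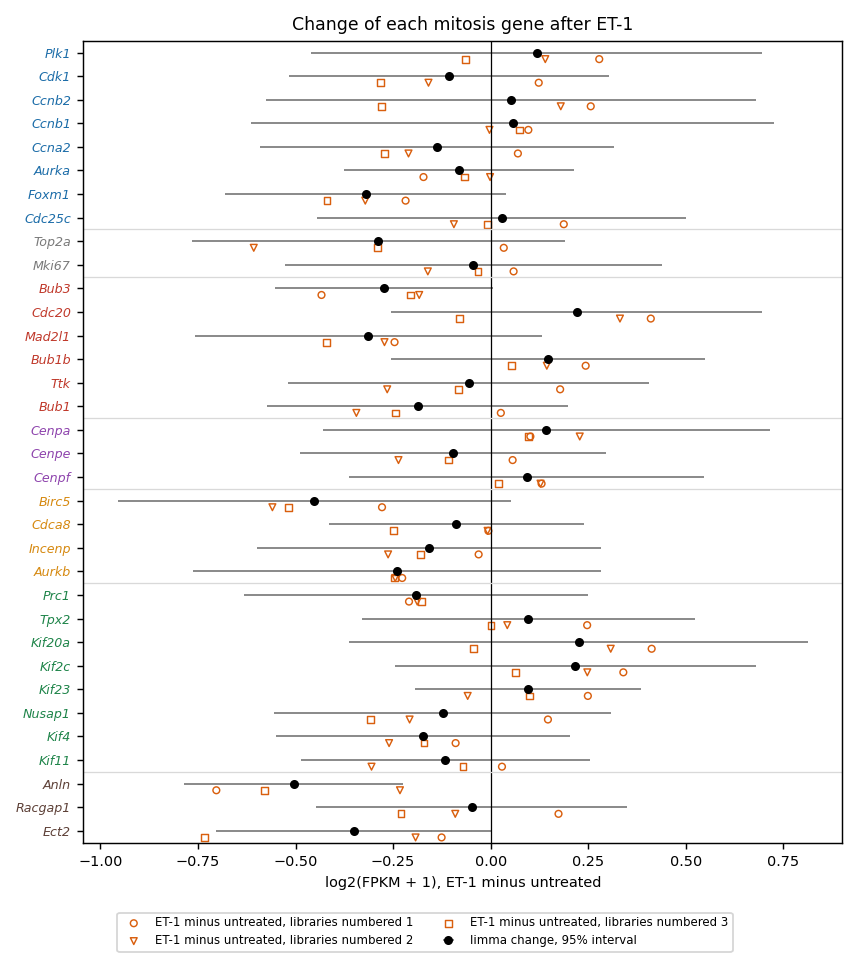
Change of each mitosis gene after ET-1 on the log2(FPKM + 1) scale (horizontal). Black points are limma changes with 95% intervals, and open symbols are the differences between libraries that carry the same number. All intervals lie between -0.96 and 0.81, and that of Anln, from -0.79 to -0.22, is the one that leaves out 0.

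Of the 8 members that carry the cell into mitosis, 4 were lower and 4 higher by sign, and none passed. Ccnb1, cyclin B1 (chromosome 13, 100778739 to 100786486, mm10), was at 29.75, 18.23 and 31.08 FPKM without ET-1 (libraries 1 to 3) and 31.88, 18.19 and 32.78 FPKM with it. The low values were those of library 2 in both groups, and the means of 26.35 ± 7.07 and 27.62 ± 8.18 FPKM (SD, n = 3 each) differed by less than the spread (log2 change 0.06, 95% interval -0.61 to 0.73). Ccnb2, cyclin B2, had means of 27.02 ± 7.37 and 28.01 ± 8.10 FPKM, and Cdk1, their kinase, of 36.82 ± 4.70 and 34.45 ± 7.45 (SD, n = 3 each). Plk1, a kinase of mitotic entry and spindle assembly (chromosome 7, 122159435 to 122169884), was at 39.46, 25.39 and 40.25 FPKM without ET-1 (libraries 1 to 3) and 48.07, 28.08 and 38.46 FPKM with it. ET-1 library 1 was highest and untreated library 2 lowest. Further entry genes were Ccna2, cyclin A2, with 26.76 ± 4.08 and 24.47 ± 5.70 FPKM, the spindle pole kinase Aurka with 21.86 ± 2.76 and 20.56 ± 1.65, and Cdc25c with 4.20 ± 0.71 and 4.37 ± 1.25 (SD, n = 3 each).

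Foxm1, the entry member that encodes a transcription factor driving many of these genes (chromosome 6, 128362994 to 128375886), was at 14.26, 11.22 and 14.27 FPKM without ET-1 (libraries 1 to 3) and 12.12, 8.78 and 10.42 FPKM with it. ET-1 library 1 lay above untreated library 2, so the groups overlapped, although each ET-1 library lay below the untreated library with its number (log2 change -0.32 ± 0.15, SE; limma adjusted p = 0.252, or 0.114 under the block). The proteins of chromosome structure were Ki-67, described above, and Top2a, the topoisomerase that untangles sister chromatids, at 26.14, 23.34 and 27.14 FPKM without ET-1 (libraries 1 to 3) and 26.78, 14.98 and 22.02 FPKM with it. Top2a was lowest in ET-1 library 2, and the remaining 5 values lay between 22.02 and 27.14 FPKM.

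Among the checkpoint and exit genes, Bub3 and Mad2l1 were lower and Cdc20 and Bub1b higher by their means, and none passed. Bub3 was at 57.33, 45.91 and 54.77 FPKM without ET-1 (libraries 1 to 3) and 42.19, 40.32 and 47.34 FPKM with it. The highest ET-1 value lay just above the lowest untreated one (log2 change -0.27 ± 0.12, SE; limma adjusted p = 0.214). Mad2l1, the protein that blocks Cdc20 until kinetochores are attached, had means of 31.84 ± 6.16 and 25.36 ± 4.51 FPKM (SD, n = 3 each; limma adjusted p = 0.356, or 0.0995 under the block). Cdc20 (chromosome 4, 118432901 to 118437343) was at 46.74, 32.88 and 46.35 FPKM without ET-1 (libraries 1 to 3) and 62.45, 41.63 and 43.77 FPKM with it. ET-1 library 1 was the highest of the 6, while libraries 2 and 3 of the ET-1 group lay below untreated libraries 1 and 3. Bub1b, the checkpoint protein BubR1, had means of 8.13 ± 1.27 and 9.14 ± 1.77 FPKM, Bub1 of 4.98 ± 0.54 and 4.29 ± 0.94, and Ttk, the kinase that starts checkpoint signalling, of 5.31 ± 0.81 and 5.14 ± 1.34 (SD, n = 3 each).

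The centromere genes showed small differences. Cenpa, the histone H3 variant that marks the centromere, had means of 20.04 ± 5.35 and 22.04 ± 4.89 FPKM, Cenpe of 4.50 ± 0.59 and 4.18 ± 0.89, and Cenpf of 2.27 ± 0.59 and 2.48 ± 0.58 (SD, n = 3 each). Their log2 changes of 0.14, -0.10 and 0.09 had 95% intervals that held 0.

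The chromosomal passenger complex, which places the Aurora B kinase at centromeres and later at the spindle midzone, was the role in which all members were lower in each of the 3 same-numbered pairs of libraries. Birc5, its subunit survivin (chromosome 11, 117849237 to 117855743), was at 58.6, 42.41 and 56.87 FPKM without ET-1 (libraries 1 to 3) and 48.14, 28.46 and 39.43 FPKM with it. ET-1 library 1 lay above untreated library 2, so the groups overlapped, with a ratio of mean FPKM of 0.73 (log2 change -0.45 ± 0.21, SE; limma adjusted p = 0.247). With the replicate block Birc5 fell (limma adjusted p = 0.0492, block fit), close to the threshold of 0.05. Aurkb, the kinase itself, had means of 15.30 ± 3.42 and 12.82 ± 2.92 FPKM, Incenp, the scaffold, of 17.07 ± 2.55 and 15.33 ± 3.33, and Cdca8, the subunit borealin, of 29.43 ± 4.05 and 27.58 ± 3.20 (SD, n = 3 each). Some pairs of this complex were close to equal, with log2 differences of -0.006 and -0.008 for Cdca8 in numbers 1 and 2 and -0.03 for Incenp in number 1. A difference of one sign in all 3 pairs was found in 12 of the 34 mitosis genes as lower and in 5 as higher, against 29.4% and 23.1% of tested genes. The labels do not say what the number stands for.

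Spindle motors and microtubule proteins were lower by log2 change in 4 of 8 genes and higher in 4. Kif20a, a motor of the central spindle, was at 21.53, 13.26 and 20.11 FPKM without ET-1 (libraries 1 to 3) and 28.99, 16.65 and 19.48 FPKM with it. ET-1 library 1 was the highest, and the other 5 libraries lay between 13.26 and 21.53 FPKM. Kif2c, which depolymerises microtubules at kinetochores, had means of 11.82 ± 2.39 and 13.89 ± 2.76 FPKM, Kif23, the motor of centralspindlin, of 9.31 ± 0.52 and 10.07 ± 1.28, and Tpx2, an activator of Aurora A, of 22.79 ± 3.62 and 24.56 ± 4.86 (SD, n = 3 each). On the lower side, Prc1, which bundles the microtubules of the midzone, had means of 26.23 ± 4.82 and 22.84 ± 4.16 FPKM. Kif4, a chromosome-bound motor, had 6.14 ± 0.79 and 5.36 ± 0.996, Nusap1 9.70 ± 1.30 and 8.93 ± 2.18, and Kif11, the motor that pushes the spindle poles apart, 5.29 ± 0.43 and 4.86 ± 1.0004 (SD, n = 3 each).

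Cytokinesis held the 2 mitosis genes whose groups did not overlap. They made up 5.9% of the mitosis genes, whereas groups did not overlap in 30.9% of all tested genes, so such separation was common elsewhere. Anln, which encodes anillin, the scaffold of the contractile ring that binds actin, myosin and septins (chromosome 9, 22331214 to 22389206), was at 29.05, 26.42 and 30.44 FPKM without ET-1 (libraries 1 to 3) and 17.46, 22.34 and 20.03 FPKM with it. Each ET-1 value lay below each untreated one, with a ratio of mean FPKM of 0.70 (log2 change -0.51 ± 0.12, SE, lower in 3 of 3 pairs; limma adjusted p = 0.0696, or 0.0568 under the block). Ect2, the exchange factor that activates RhoA at the division site (chromosome 3, 27097222 to 27153878), was at 9.91, 9.09 and 11.05 FPKM without ET-1 (libraries 1 to 3) and 9, 7.83 and 6.25 FPKM with it. Its highest ET-1 value, 9 FPKM, lay just below the lowest untreated value of 9.09 (log2 change -0.35 ± 0.15, SE; limma adjusted p = 0.21). Racgap1, the partner of Kif23 in centralspindlin, was at similar levels, with means of 21.12 ± 2.69 and 20.54 ± 4.27 FPKM (SD, n = 3 each). Anln and Ect2 were also the 2 members in which ET-1 library 2 was not the lowest ET-1 library.

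The libraries numbered 2 stood apart in this gene set in both groups. Untreated library 2 was the lowest untreated library in 34 of 34 mitosis genes, against 43.8% of tested genes, and ET-1 library 2 the lowest ET-1 library in 32 of 34, against 30.9%. Both held in 32 genes (94.1%), against 20.8% of tested genes. In untreated cells library 2 stood at 0.59 (Ccnb2) to 0.95 (Kif23) of the mean of libraries 1 and 3, and in ET-1 cells at 0.56 (Ccnb1) to 1.19 (Anln). The summed FPKM of the 34 genes was 742.4, 554.4 and 750.6 in untreated libraries 1 to 3 and 752.9, 515 and 649.8 in ET-1 libraries 1 to 3. The lowest value of all 6 libraries was in ET-1 library 2 for 23 genes and in untreated library 2 for 9, and the highest in ET-1 library 1 for 16 and in untreated library 3 for 13. These shares describe the libraries and have no test, and genes of one programme are not independent of each other.

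This difference between library numbers was larger than that between groups. On the log2 scale, library 2 minus the mean of libraries 1 and 3 had a median over the 34 genes of -0.35 in untreated and -0.45 in ET-1 cells, against 0.00 in both over all tested genes. The median SD within a group was 0.27 for mitosis genes and 0.17 for all tested genes. By number, ET-1 minus untreated had a median of 0.06 in the libraries numbered 1 (12 of 34 genes lower), -0.17 in those numbered 2 (25 lower) and -0.17 in those numbered 3 (27 lower). Of all 11664 tested genes 6525, 6260 and 5927 were lower in numbers 1, 2 and 3.

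Some markers of other cells moved with the library number too. The summed FPKM of 15 Sertoli cell markers was 2458.38 in untreated library 2 against 1090.3 and 1326.59 in untreated libraries 1 and 3, and 6485.73 in ET-1 library 2 against 3040.69 and 3017.08, with 10 of 14 tested markers highest in library 2 of both groups, against 2502 of 11664 tested genes. Most of that sum was Clu, at 839.66 to 1878.77 FPKM in untreated and 2579.17 to 5623.52 in ET-1 cells. The sum of 9 Leydig cell markers was lowest in the libraries numbered 2, at 2393.31 against 4943.96 and 5016.36 in untreated and at 882.9 against 1745.44 and 2479.33 in ET-1 cells. Most of it was Insl3, at 2039.89 to 4531.62 FPKM in untreated and 613.96 to 2096.33 in ET-1 cells. Lowest in library 2 of both groups were 3 of 5 tested Leydig cell markers, against 20.8% of tested genes. Sums of 15 macrophage markers ran from 142.13 to 240.15 FPKM in untreated and from 355.9 to 819.44 in ET-1 cells, those of 10 endothelial markers from 62.36 to 97.65 and from 27.32 to 48.33, and those of 13 peritubular myoid and smooth muscle markers from 3950.16 to 4528.52 and from 4592.8 to 6300.09. The smooth muscle sum was lowest in untreated library 2 but highest in ET-1 library 2. In library 2 of both groups, 1 of 14 tested macrophage markers was highest, and 1 of 7 endothelial and 1 of 13 smooth muscle markers were lowest. Sums of 18 meiotic and germ cell markers ran from 93.92 to 124.27 and from 86.81 to 165.97 FPKM, mostly Uchl1 (67.97 to 143.73), with 4 of 5 tested markers highest in library 2 of both groups. Between the groups, limma called 2 of 14 tested Sertoli cell markers and 1 of 14 macrophage markers higher and 4 of 7 endothelial markers lower, and none of the 5 Leydig cell, 13 smooth muscle or 5 germ cell markers. With the replicate block it called 6 Sertoli cell markers higher, 7 macrophage markers higher and 1 lower, 6 endothelial markers lower, and 1 Leydig cell marker higher and 2 lower, and again none of the smooth muscle or germ cell markers. Over all tested genes 3.46% were called without the block and 9.45% with it. None of the listed markers other than Spo11 was at 0 in all 6 libraries. The part of these markers in the mitosis values was not tested.

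**Figure D3:**
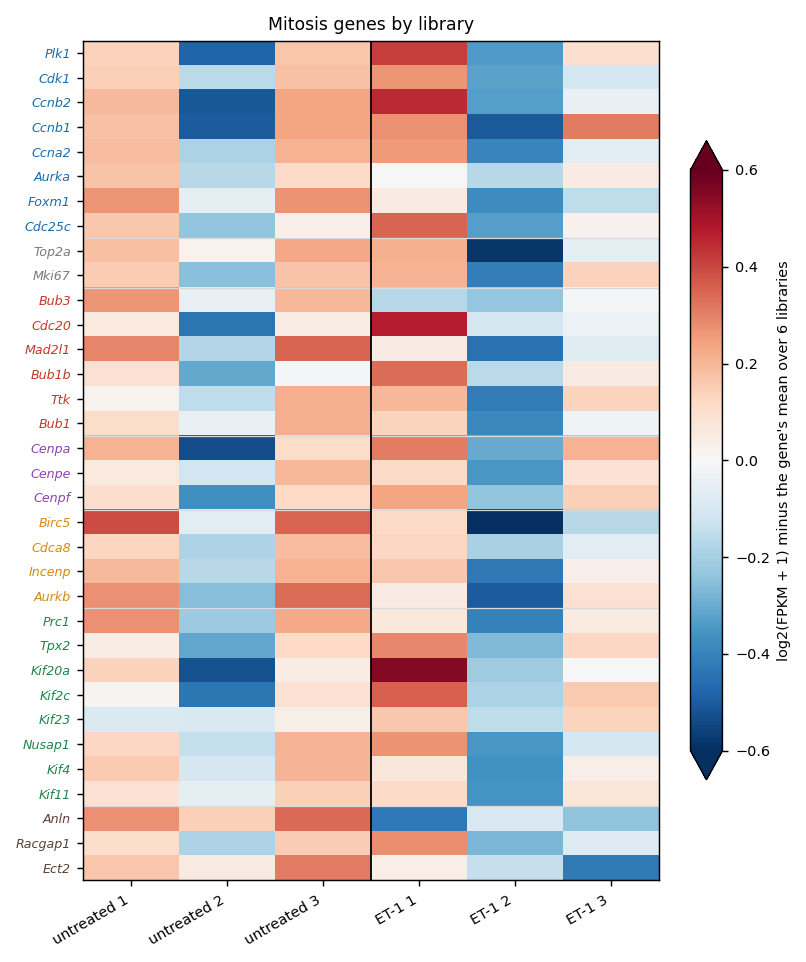
Each mitosis gene's log2(FPKM + 1) in each library, minus its mean over the 6 libraries (colour; blue below, red above). Columns are libraries and rows genes in the order of the plot of levels. The columns numbered 2 are the bluest of each group, with 34 of 34 genes lowest in untreated library 2 and 32 of 34 in ET-1 library 2, and Anln and Ect2 at the bottom differ from that pattern.

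Genes of mitosis outside the 34 were read from lists of kinetochore, chromosome cohesion, APC/C, kinase, spindle and regulator genes. Of 154 tested, 1 rose and 3 fell in limma, while 3.46% of all tested genes were called in either direction. By sign 112 were lower (72.7%, against 54.3% of all tested genes), with a median log2 change of -0.12. In the lower direction 1.89% of all tested genes were called, so the calls in this list were no more than the share over all genes. The count of 4 went to 0 without untreated library 1 or 3 or ET-1 library 1 or 2, to 1 without untreated library 2, and to 7 (1 higher, 6 lower) with the replicate block. With that block 9.45% of all tested genes were called.

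Cenpm, a subunit of the inner kinetochore, fell from 34.37, 38.16 and 39.9 FPKM in the untreated to 22.18, 23.15 and 21.31 in the ET-1 libraries (log2 change -0.73 ± 0.10, SE; limma adjusted p = 0.021). Zw10, which recruits dynein to kinetochores, fell from 11.70 ± 0.78 to 7.29 ± 0.62 FPKM (SD, n = 3 each; limma adjusted p = 0.0402). In both, ET-1 library 2 was the highest ET-1 library, unlike in most of the 34. The regulators held a change in each direction. E2f4, the E2F factor of the DREAM complex, fell from 38.53, 37.83 and 39.5 to 25.06, 25.45 and 28.77 FPKM (log2 change -0.53 ± 0.09, SE; limma adjusted p = 0.0375), and Lin37, a MuvB subunit of that complex, rose from 20.22, 19.16 and 18.93 to 32.06, 32.21 and 25.89 FPKM (log2 change 0.60 ± 0.11, SE; limma adjusted p = 0.044). Lin37 overlaps Hspb6 on the other strand, and whether strand was used in counting is not given, so reads of the 2 genes may not have been told apart.

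The lists without a call were cohesion and condensin (22 tested, median log2 change -0.24), the APC/C (20 tested, 0.01), other mitotic kinases and phosphatases (21 tested, -0.12) and other motors and spindle proteins (40 tested, -0.08). The 2 genes with the smallest p in each of these lists, in that order, were Pds5b, a cohesin regulator (limma adjusted p = 0.0893), Cdca5, which protects cohesion (0.122), Trip13, which takes the checkpoint complex apart (0.0793), Fbxo5, an inhibitor of the APC/C (0.146), Pbk (0.294), Pkmyt1, an inhibitory kinase of CDK1 (0.34), Iqgap3 (0.0696) and Stil, a centriole protein (0.12), all lower. Trip13 passed with the replicate block (limma adjusted p = 0.0308, block fit). So did Cenpi and Ska2 of the kinetochore list, picked once their values had been seen. In that fit 5.19% of all tested genes were called lower. The low value of library 2 in both groups was seen in 30 of the 40 motors and spindle proteins, 19 of 34 kinetochore genes and 16 of 22 cohesion genes, and in 3 of the 20 APC/C genes.

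DNA replication genes, which act in S phase before mitosis, lay lower after ET-1 than the mitosis genes did. Of 47 tested, 46 were lower by sign (97.9%, against 54.3% of all tested genes) with a median log2 change of -0.45. In limma 3 fell and none rose, while 1.89% of all tested genes fell. With the replicate block 19 fell, while 5.19% of all tested genes did. The count of 3 was 0 without untreated library 1 or 3 or ET-1 library 1 or 2, 4 without untreated library 2 and 6 without ET-1 library 3. Uhrf1, which maintains DNA methylation at the fork, fell from 21.77, 16.44 and 22.17 to 12.05, 9.45 and 12.02 FPKM (log2 change -0.79 ± 0.16, SE; limma adjusted p = 0.0463). Ung, a uracil-DNA glycosylase, fell from 6.16 ± 0.35 to 3.66 ± 0.40 FPKM, and Ccne2, cyclin E2, from 2.14 ± 0.20 to 1.02 ± 0.07 (SD, n = 3 each; limma adjusted p = 0.043 and 0.0375). Ccne2 overlaps Ints8 on the other strand. The genes that fell with the block included Mcm2, Mcm3, Mcm5, Mcm6 and Mcm7 of the replicative helicase. Rrm2, a subunit of ribonucleotide reductase, went from 141.37, 52.98 and 122.94 to 49.7, 33.06 and 52.1 FPKM (limma adjusted p = 0.133 without the block and 0.0179 with the block).

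The summed FPKM of the 48 replication genes with values was 1140.3, 884.4 and 1115.1 in untreated libraries 1 to 3 and 827.8, 680.7 and 807.9 in the ET-1 libraries, so both groups were again lowest in library 2. The mitosis sum divided by the replication sum was 0.651, 0.627 and 0.673 in the untreated and 0.91, 0.757 and 0.804 in the ET-1 libraries. These ratios did not overlap between the groups, whereas the mitosis sums did. The difference between the lists was not tested, and the lists were chosen with earlier results on these data known.

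**Figure D4:**
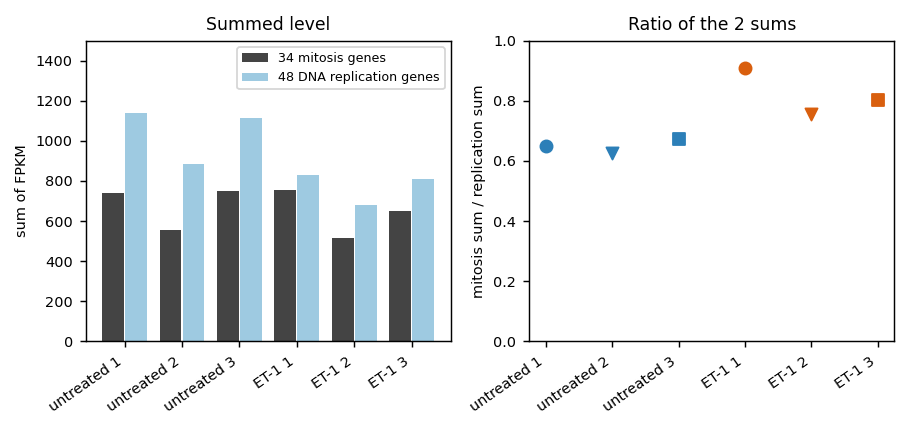
Left, summed FPKM of the 34 mitosis genes (dark bars) and of 48 DNA replication genes (light bars) in each library. Right, the ratio of the sums, with point shape for the library number; untreated libraries lie between 0.627 and 0.673 and ET-1 libraries between 0.757 and 0.91.

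**Figure D5:**
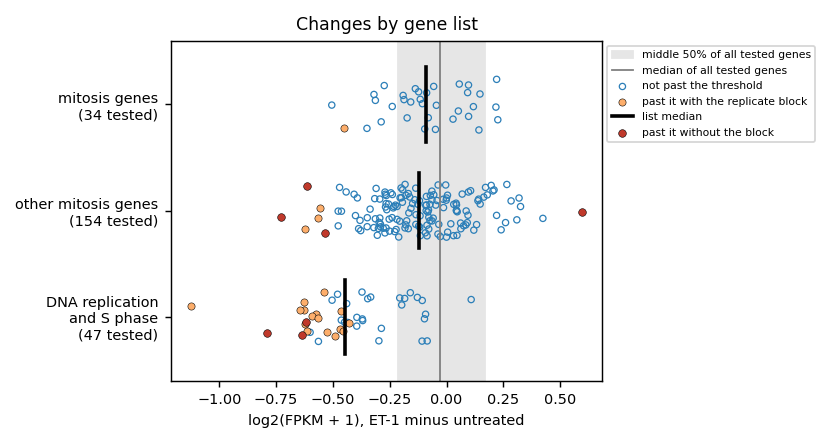
log2(FPKM + 1) change after ET-1 (horizontal) of the mitosis genes, the other mitosis genes and the DNA replication genes, 1 point per gene, with the vertical scatter within a row being arbitrary. The thick line is the list median (-0.09, -0.12 and -0.45), the grey band the middle 50% of all tested genes, and filled points passed limma without (red) or with (orange) the replicate block.

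Of 21 tested cyclin D, CDK inhibitor and growth arrest genes, 1 rose and none fell, with a median log2 change of 0.07. Over all tested genes 3.46% were called in either direction. Cdkn2a, whose products include an inhibitor of the cyclin D kinases that keep the Rb family inactive, rose from 2.53, 3.07 and 2.54 FPKM in the untreated to 16.45, 13.66 and 9.95 in the ET-1 libraries (log2 change 1.93 ± 0.18, SE, higher in 3 of 3 pairs; limma adjusted p = 0.0146). The values are per gene, so its transcripts were not told apart. With the replicate block 3 rose, the others being Cdkn2b and Ccng2, picked once their values had been seen, while 9.45% of all tested genes were called. The count of 1 was 0 without untreated library 3 and 2 without ET-1 library 3.

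In the authors' deposited table, whose q-value is named for DEGseq, 29 of the 34 mitosis genes had a q-value under 0.05 (19 lower, 10 higher), against 66.1% of the 16812 genes with a q-value. The smallest, 3.34e-104, was that of Anln, and Birc5 had 9.56e-26, both in the authors' deposited table. The 5 genes above 0.05 there were Mki67, Ccnb2, Ttk, Cdc25c and Racgap1. How replicates entered that comparison is not stated in the labels or headers.

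Counting can be uncertain for some members. In the GENCODE M21 annotation 11 of the 34 genes overlap a gene on the other strand, among them Cdc20 (Elovl1), Bub3 (Fgfr2), Kif20a (Cdc23), Ccna2 (Exosc9), Kif4 (Pdzd11) and Prc1 (Rccd1), and 4 overlap a gene on their own strand, among them Anln (Gm48646) and Foxm1 (Tex52). Ccnb1, Ccnb2 and Kif4 have a pseudogene that carries their name, with which reads could have been shared.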

How the data were processed

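RNA of 3 untreated and 3 ET-1 libraries was sequenced from total RNA with the provider's standard protocol, per the labels' protocols. The submitters' processing notes name HISAT2 2.0.4, Bowtie2 2.2.5, RSEM 1.2.12 and build mm10. The authors deposited FPKM values per gene for each library, and a log2 fold change and q-value per gene for their own comparison, whose column is named for DEGseq per the file headers. Other counting details are not given in the sources used here.

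From the 22135 rows, 19285 had values in all 6 libraries, and 11664 reached 1 FPKM in at least 3. These were tested with limma 3.58.1 (R 4.3.3) on log2(FPKM + 1), with an intensity trend and group as the only term. The pseudocount understates changes of low genes. P-values were adjusted over all 11664 genes by Benjamini-Hochberg with a threshold of 0.05. An exact permutation test of 3 against 3 libraries cannot go below 0.1 and was not used. The test was checked on simulated data. Noise there was independent for each gene and library, so shifts shared by many genes of a library were not covered.

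Groups came from the treatment labels. Same-numbered libraries deviated from their group means together, with correlations of 0.228, 0.523 and 0.202 for numbers 1, 2 and 3, so the number was also fitted as a block. The labels do not say what the number stands for, and numbers 1 and 3 correlated as well across groups (0.249 and 0.271). Untreated libraries 1 and 3 were the most alike pair (Pearson r across genes 0.9964, others 0.9729 to 0.9835), and a fit with their average was an alternative. Members and lists were chosen with earlier results of these data known. Genes outside the 34 were named by call, or else as the smallest p-values of their list.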

Additional observations from a re-analysis of the deposited data

How the results depend on the processing

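Over 17 other settings, 1 of the 34 mitosis genes (Birc5, with the replicate block) passed the threshold in any of them, and 18 kept their sign in all of them. The median log2 change of the 34 ran from -0.133 (TPM) to -0.041 (quantile normalization) over settings with every library, and from -0.189 to 0.031 with single libraries left out. With the replicate block, counts of called genes were 1102 of all tested genes (404 without it), 1 mitosis gene (0), 7 other mitosis genes (4), 19 replication genes (3) and 3 cyclin D and CDK inhibitor genes (1). With single libraries left out these counts ran from 0 to 774, were 0 throughout for the 34, and ran from 0 to 6, 0 to 6 and 0 to 2. With untreated libraries 1 and 3 averaged they were 9 of all genes and 0 of the other mitosis, replication and cyclin D genes. Without both libraries numbered 2 they were 225 of all genes and 0 of the other mitosis genes. With no filter they were 193 of all genes, 2 other mitosis genes and 0 replication genes. A filter of 1 FPKM in all 6 libraries left 1 replication gene, and a pseudocount of 0.1 or TPM gave 2 cyclin D genes. Log2 changes that turned sign were Mki67 at 0.024 (libraries 1 and 3 averaged) and 0.013 (without the libraries numbered 2), Ccnb2 at -0.012 and Ttk at 0.048 (without those numbered 2), Cdc25c at -0.004 (TPM), and Racgap1 at 0.015 (quantile) and 0.003 (averaged). With single libraries left out, log2 changes ran from -0.183 to 0.151 for Mki67, -0.180 to 0.321 for Ccnb1, -0.189 to 0.229 for Ccnb2, -0.299 to 0.027 for Ccna2, -0.266 to 0.027 for Cdk1, -0.17 to 0.138 for Ttk, -0.092 to 0.317 for Plk1, -0.087 to 0.329 for Cenpa, -0.179 to 0.055 for Cenpe and -0.067 to 0.235 for Cenpf. They ran from -0.281 to 0.018 for Incenp, -0.139 to 0.201 for Cdc25c, -0.201 to 0.034 for Kif11, -0.034 to 0.255 for Tpx2, -0.289 to 0.021 for Nusap1 and -0.200 to 0.076 for Racgap1. The cause was not tested. The estimate from low values and longest transcripts put at least about 108 fragments behind each member value. The standard error of the log2 change was 0.28 for Ccnb1 and 0.24 for Plk1, and 0.09 and 0.11 with the replicate block.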
